A study of Bos taurus with 9 samples.

Results

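Among the abundant transcripts of hatched bovine blastocysts, 128 genes were lower in every pool of cooled embryos than in every control pool. The genes were chosen by their measured values. CPM is a gene's count divided by the total of its library, put on the same scale for all libraries. A gene entered when its mean over all 9 libraries was 50 CPM or more and its highest CPM among the 6 libraries labelled Nanuq and Cryotop lay below its lowest CPM among the 3 control libraries. Of 27607 genes in the table, 4030 reached the abundance minimum, and the 128 members are 3.18% of these. The opposite pattern, every cooled library above every control library, was met by 97 genes, or 2.41%. Because the rule compared cooled with control libraries, what follows on that contrast describes the choice and carries no test.

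A blastocyst consists of an outer trophectoderm, which forms the placenta, and an inner cell mass, which forms the embryo proper. Before it can elongate and implant it hatches from the zona pellucida, the glycoprotein shell around it. Vitrification cools embryos in concentrated cryoprotectant so fast that water turns to a glass, and embryos then have to warm, rehydrate and re-expand before they hatch. Cryotop is the name of a carrier on which embryos are cooled in a very small volume on a thin film strip.

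The study had 3 groups of 3 libraries, a control (CTR) and groups named Nanuq and Cryotop. Each library was made from polyadenylated RNA of a pool of 5 to 10 embryos that had hatched within 24 h of thawing, so in all 3 groups the values describe survivors that hatched. The design distinguishes standard from ultrafast cooling without tying either speed to a device name. No label states whether the control embryos had been cooled, which breed they came from, or whether replicate pools stem from separate productions. The spread between pools may therefore be partly technical.

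The deposited table pairs no gene with a symbol. The gene table used with it held 0 Ensembl entries, so 0 identifiers were matched, no function is stated for any member, and the labelled tissue could not be checked against marker genes. In pooled embryos, fewer cells of a type and less RNA per cell cannot be told apart.

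Libraries held between 3970666 counts in Cryotop replicate 1 and 25745731 counts in CTR replicate 2. The next smallest library, Cryotop replicate 3, held 16343398. Genes with at least 1 count numbered 12104 in Cryotop replicate 1 and 12641 in Cryotop replicate 3, and 13869 to 16338 in the other 7 libraries. The members themselves were well covered. Their lowest count in any library was 134, in Cryotop replicate 1, and the median member had 426 counts there and 1854.5 to 4133.5 in the other libraries.

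Compared with abundant genes in general, the members were somewhat more abundant, although none came near the highest level. Their mean level had a median of 133 CPM and ran from 50.4 to 1314 CPM, where all 4030 abundant genes had a median of 106 CPM and reached 14947 CPM. Of the 128, 48 averaged below 100 CPM, 49 averaged 100 to below 300 CPM, 27 averaged 300 to below 1000 CPM and 4 averaged 1000 CPM or more. Genes at 300 to below 1000 CPM made up 21.1% of the members and 11.4% of the abundant genes. At 1000 CPM or more the shares were 3.125% and 2.43%.

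The falls were moderate. The mean of the 6 cooled libraries stood at a median of -24.2% relative to the CTR mean over the members. The changes ran from -39.3% to -5.23%, and 91 members were lower by 20% or more. In Nanuq alone the median change was -23.2%, with a range from -42.1% to -5.88%. In Cryotop alone it was -26.1%, with a range from -44.7% to -4.54%. Both sets of changes were taken against the same 3 CTR libraries. The median over all 4030 abundant genes was -0.266% in Nanuq and -1.02% in Cryotop.

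Falls of that size were not limited to members. Among the abundant genes, 175, or 4.34%, had a cooled mean lower by at least the members' median fall, and 64 of these, 36.6%, were members. The other 111 had at least 1 cooled library at or above 1 control library. Members also varied less between control pools than abundant genes in general, with a median coefficient of variation of 9.59% against 13.4%, which the rule favours. The medians were 9.01% against 9.71% in Nanuq and 11.2% against 14.5% in Cryotop.

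**Figure D1:**
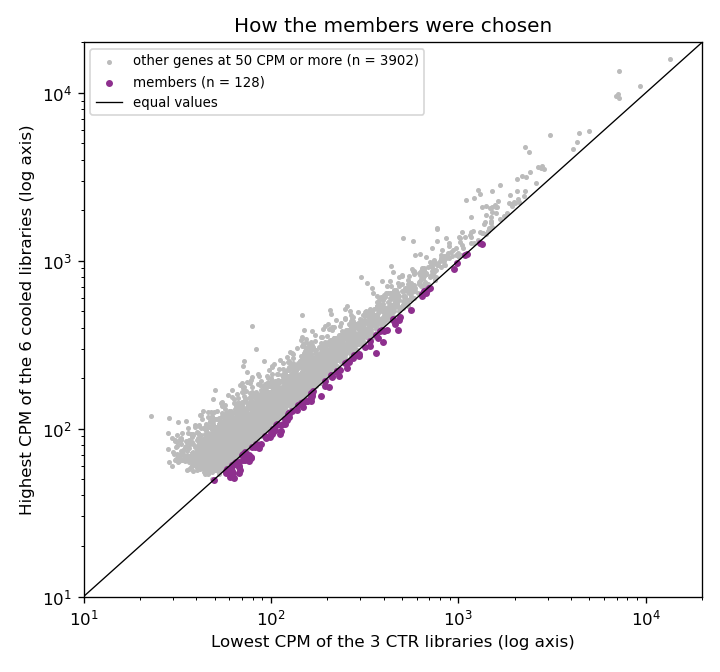
Each point is a gene averaging 50 CPM or more, placed by its lowest CPM among the 3 CTR libraries (x axis, log scale) and its highest CPM among the 6 cooled libraries (y axis, log scale). The 128 members lie below the line of equal values, most of them close to it, and the other 3902 genes lie on or above it.

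The distance between the groups was narrow for most members. Between the lowest CTR library and the highest cooled library the gap had a median of 4.28% of the CTR value, and its quartiles were 1.71% and 7.87%. It was 5% or more in 60 members, 10% or more in 24 and 20% or more in 2. Exact 95% Poisson intervals of the counts in those 2 bounding libraries did not overlap for 41 of the 128. For the other members the intervals overlapped, which alone does not place the separation within counting error. These intervals cover the counting error of reads only, and may be too narrow where reads repeat the same molecule.

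The members at the edge of the rule show how fine it is. The member with the narrowest gap had 658 CPM in its lowest CTR library and 657 CPM in its highest cooled library. The gene just outside had 58.0 CPM in its lowest CTR library and 58.1 CPM in its highest cooled library, and its Nanuq mean stood at -30.6% relative to CTR. At the abundance minimum, the lowest member averaged 50.4 CPM, with 49.95 to 75.3 CPM in CTR and 36.3 to 49.7 CPM in the cooled libraries. The nearest gene under the minimum measured 56.1 to 60.5 CPM in CTR and 35.4 to 52.5 CPM in the cooled libraries.

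The widest gap was that of ENSBTAG00000013358. It measured 391, 439 and 364 CPM in CTR replicates 1, 2 and 3, and 215, 266 and 257 CPM in Nanuq replicates 1, 2 and 3. In Cryotop it measured 272, 281 and 274 CPM. The Cryotop pools nearly coincided, all 3 Nanuq pools lay below them, and 22.8% of the level separated the lowest control from the highest cooled pool. The group means were 398 ± 38.3 CPM in CTR, 246 ± 27.3 CPM in Nanuq and 276 ± 4.42 CPM in Cryotop (SD, n = 3 each).

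The next widest gap, 20.4%, was that of ENSBTAG00000010910, a gene at the lower end of the abundance range. It measured 63.8, 80.2 and 67.3 CPM in CTR, 37.7, 50.8 and 48.2 CPM in Nanuq, and 48.9, 45.5 and 44.5 CPM in Cryotop. Its means were 70.4 ± 8.64 CPM in CTR, 45.6 ± 6.92 CPM in Nanuq and 46.3 ± 2.29 CPM in Cryotop (SD, n = 3 each). All Cryotop values lay within the range of the Nanuq values.

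The 2 members with the largest falls had a different shape, with a single high control. The gene with the largest fall measured 67.7, 117 and 68.1 CPM in CTR replicates 1, 2 and 3, and 39.0 to 59.1 CPM over the 6 cooled libraries. The gene with the next largest fall measured 590, 1006 and 560 CPM in CTR and 367 to 513 CPM in the cooled libraries. In both, CTR replicate 2 stood far above the other controls, at 1.73 and 1.75 times their mean. The cooled means stood at -39.3% and -39.2% relative to all 3 controls, and at -24.5% and -24.0% relative to CTR replicates 1 and 3.

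The most abundant member showed the same high control. It measured 1355, 1988 and 1337 CPM in CTR, 1017, 1255 and 1264 CPM in Nanuq, and 1209, 1244 and 1156 CPM in Cryotop. The next most abundant member did not. Its controls measured 1301, 1329 and 1363 CPM, and its cooled libraries ran from 980 CPM in Nanuq replicate 1 to 1285 CPM in Nanuq replicate 3, only 1.22% below the lowest control.

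**Figure D2:**
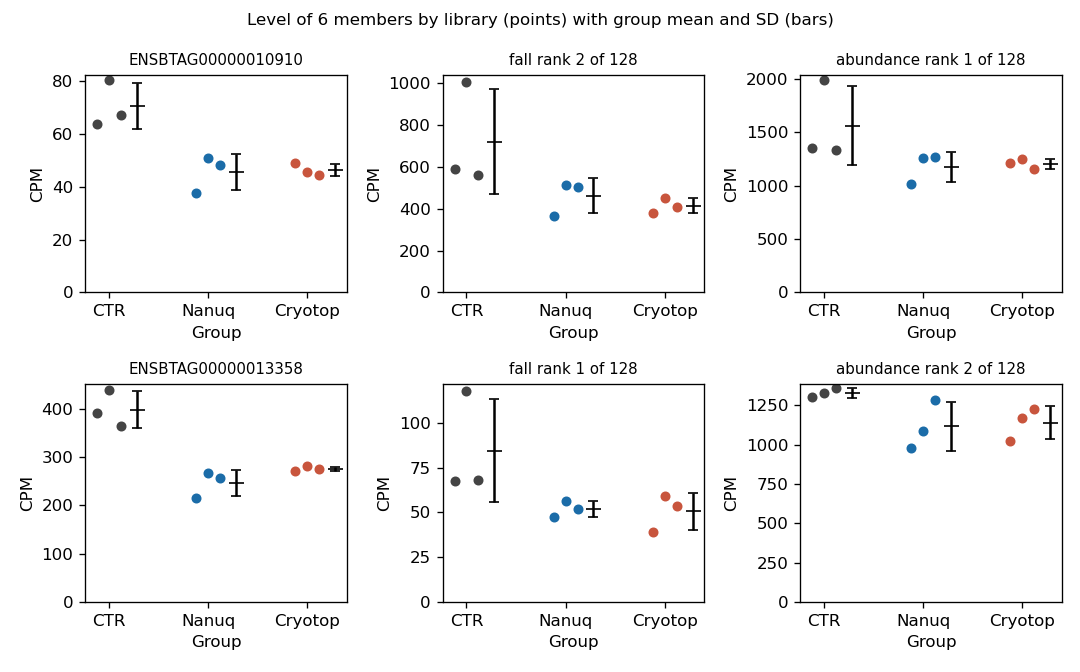
CPM (y axes, linear from 0) of 6 members in the 3 libraries of each group, with the group mean and SD (n = 3) beside the points. The left panels show the widest gaps, ENSBTAG00000010910 and ENSBTAG00000013358; the middle panels show the largest falls, where CTR replicate 2 lies at 1006 and 117 CPM above the other controls; the right panels show the most abundant members.

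CTR replicate 2 was the highest control for 80 of the 128 members, or 62.5%, and for 32.2% of the abundant genes. It was at least 1.2 times the mean of the other controls in 43 members, or 33.6%, against 17.2% of the abundant genes, a ratio chosen after the values were seen. In those 43 the median change of the cooled mean was -28.2% against all 3 controls and -18.6% against CTR replicates 1 and 3. In the other 85 members the values were -21.8% and -21.4%. Over all members the median change was -20.9% when CTR replicate 2 was left out of the control mean. The lowest control, which bounds the gap, was most often CTR replicate 3, in 68 members, then CTR replicate 1 in 39 and CTR replicate 2 in 21.

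On the cooled side no single library bounded the members. The highest cooled library was Nanuq replicate 2 in 30 members, Nanuq replicate 3 in 29, Cryotop replicate 3 in 24, Cryotop replicate 2 in 22, Nanuq replicate 1 in 14 and Cryotop replicate 1 in 9. The lowest was Cryotop replicate 1 in 45 members, or 35.2%, and it was also the lowest for 32.1% of the abundant genes. In Cryotop replicate 2, the Cryotop pool with the most detected genes, the members had a median change of -21.3% from the CTR mean, and the abundant genes of 0.853%.

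Summed over the 128 genes, the members took 3.31%, 3.91% and 3.25% of all counts in CTR replicates 1, 2 and 3. The shares were 2.51%, 2.78% and 2.78% in Nanuq and 2.52%, 2.75% and 2.68% in Cryotop. The cooled pools kept within a narrow band, and CTR replicate 2 was the highest of the 9. Group means were 3.49 ± 0.364% in CTR, 2.69 ± 0.155% in Nanuq and 2.65 ± 0.115% in Cryotop (SD, n = 3 each).

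**Figure D3:**
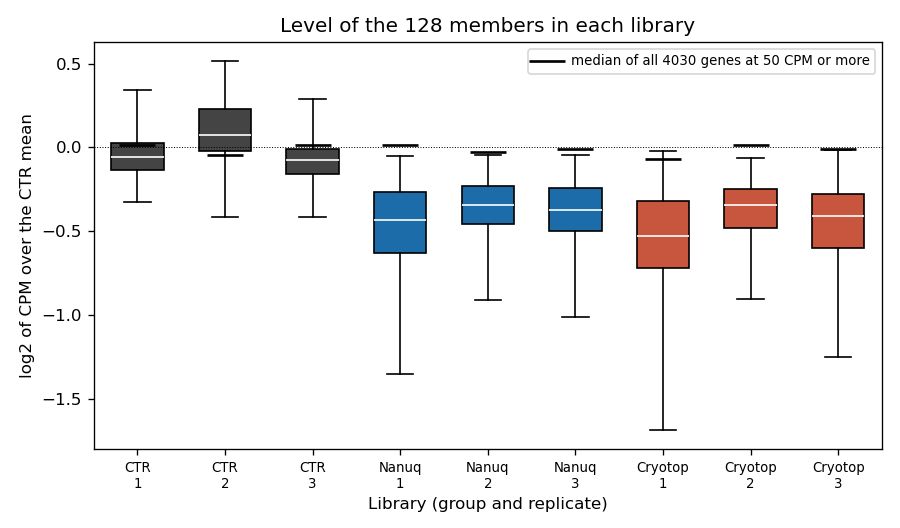
Boxes show the log2 ratio of CPM to the CTR mean over the 128 members in each library (y axis; white line, median; box, quartiles; whiskers, lowest and highest), coloured by group, and black dashes show the median of all 4030 abundant genes. Member medians lie at -0.06, 0.08 and -0.07 in CTR and between -0.53 and -0.34 in the cooled libraries, while the medians of the abundant genes stay between -0.07 and 0.02.

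Each library's part in the rule was seen by leaving it out. From the 8 libraries without CTR replicate 1 the rule found 208 genes, and in 126 of them, 60.6%, CTR replicate 1 lay above all cooled libraries. Without CTR replicate 2 it found 289 genes and that library was on the same side in 127, or 43.9%. Without CTR replicate 3 it found 304 genes, with 127 on the same side, or 41.8%. Over all abundant genes these controls lay above all cooled libraries in 18.8%, 19.4% and 15.1%. Genes found in this way with the library left out on the same side are the members again, apart from changes at the abundance minimum. These shares are therefore descriptions with no test.

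For the cooled libraries the shares were higher. The number of genes on the same side, 126 to 131 over all libraries, follows from the rule itself. A gene found from 8 libraries, with the library left out on the same side, is separated over all 9. These genes are the 128 members again, apart from changes at the abundance minimum. The shares reflect how many genes were found, and carry no independent information from the library left out. The rule rests on fewer controls than cooled libraries, and leaving out a control gave more genes. The shares therefore do not rank the libraries. The abundant genes set beside them were not chosen by the rule, so that comparison is no test of a library left out. Leaving out a Nanuq library gave 152 to 166 genes, of which the library left out lay below all controls in 78.3% to 84.2%, against 22.8% to 23.5% of the abundant genes. Leaving out a Cryotop library gave 145 to 174 genes. The share was 74.7% for Cryotop replicate 1, 90.3% for replicate 2 and 77.1% for replicate 3, against 36.0%, 22.1% and 31.1% of the abundant genes. Without both Cryotop replicates 1 and 3, the pools with the fewest detected genes, the rule found 232 genes, among them all 128 members. Removing cooled libraries cannot raise the highest cooled CPM, so a member could drop out only through the abundance minimum.

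**Figure D4:**
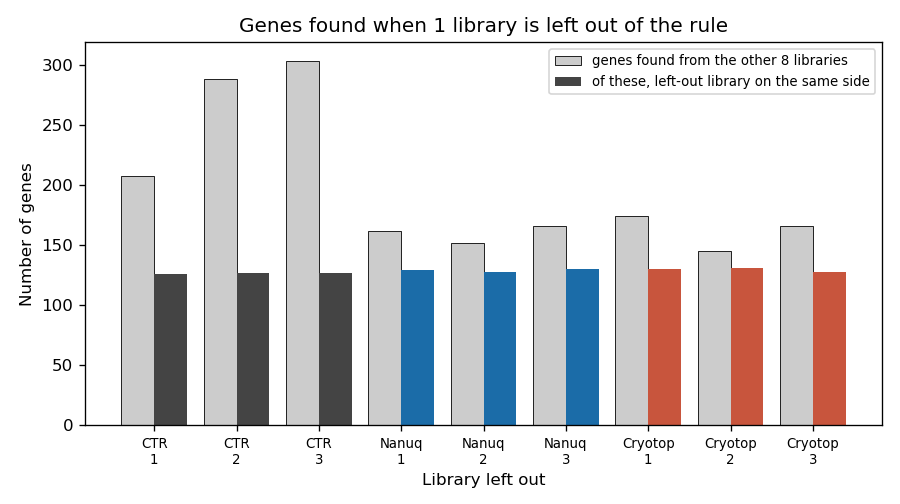
For each library left out (x axis), the grey bar gives the number of genes that the rule finds from the other 8 libraries, and the coloured bar the number of those in which the library left out lies on the same side (dark grey, CTR; blue, Nanuq; red, Cryotop). Leaving out a control raises the number found to between 208 and 304, and leaving out a cooled library to between 145 and 174. By the rule itself, the coloured bars count the members again, apart from changes at the abundance minimum.

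Deviations of members within groups were weakly correlated. For each pair of members, the deviations from the group means of log2(CPM + 1) over the 9 libraries were correlated across libraries. The median correlation was 0.12 between members and 0.02 between abundant genes, and 0.11 and 0.02 over 8 libraries without CTR replicate 2. All pairs share the same libraries and their depth. The rule also limited the members' values in these libraries, which it did not do for the abundant genes. These values are therefore descriptions with no test.

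Membership depended on how libraries were scaled. With library sizes scaled by TMM, the trimmed mean of M-values, the rule found 83 genes, of which 76 were members, and with DESeq2-style size factors it found 84, of which 78 were members. Under both scalings 71 members were kept. The 57 not kept had a median gap of 1.40% and none above 5.55%, and the 71 kept had a median gap of 7.74%. All 24 members with a gap of 10% or more were among the 71. So were 39 of the 41 whose counting intervals did not overlap.

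In the fit over all 14005 genes that were abundant enough to test, 0 members passed an adjusted p of 0.05 against CTR in Nanuq, in Cryotop or in both cooled groups averaged, by edgeR's quasi-likelihood test. Over all genes tested, 0% were called lower in each. At an unadjusted p under 0.05, 59 members were lower in Nanuq, 96 in Cryotop and 97 in both averaged, where 2.18%, 4.61% and 3.73% of all genes tested were lower at that level. Among the 4030 abundant genes, 151, 292 and 257 were lower at that level. DESeq2 called 7 of 113 members with an adjusted p lower in Nanuq, 14 of 128 lower in Cryotop and 17 of 128 lower in both averaged, where it called 0.228%, 0.369% and 0.384% of genes lower. With no minimum on counts, edgeR called 6 members lower in Nanuq, 10 in Cryotop and 17 in both averaged. It called 0.0586%, 0.245% and 0.213% of 18783 genes lower in these comparisons. In that fit the spread of the median gene came wholly from the estimate shared over genes. Its prior degrees of freedom were infinite, against 12.9 with the minimum, so these calls make little use of each gene's own spread. limma voom called 0 members. The rule used these contrasts, so the members had to differ in them and the counts are given as description. Without CTR replicate 2, the counts of members at an unadjusted p under 0.05 were 26, 54 and 53. Over all genes tested in those fits, 610, 780 and 713 of 14673 lay under that level in either direction. In the fit over all libraries these were 598, 1037 and 881 of 14005. Without Nanuq replicate 1 the count of members in Nanuq was 31, and 474 of 14610 genes lay under that level in either direction. Leaving out both Cryotop replicates 1 and 3 keeps a single Cryotop library. The members' median log2 fold change in Cryotop was then -0.35, and -0.45 in the fit over all libraries.

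Nanuq against Cryotop is the contrast the rule did not compare, although it held all 6 of their libraries below the controls and so favoured genes with little spread among them. It asks whether embryos from the 2 devices differed in these genes. edgeR's quasi-likelihood test called 0 of the 128 members at an adjusted p under 0.05, and 0% of all 14005 genes. DESeq2 and limma voom also called 0 members. At an unadjusted p under 0.05 there were 3 members, or 2.34%, all higher in Nanuq. Of all genes tested, 4.06% lay under that level in either direction and 2.49% were higher in Nanuq. The number of members under it was 0 without Cryotop replicate 1, 0 without Nanuq replicate 3 and 6 without Cryotop replicate 2. Over all genes, those fits gave 569 of 14766, 397 of 14641 and 1284 of 14599 under that level. The smallest adjusted p of any member was 1, and over the alternatives it went down to 0.274 without Cryotop replicate 2.

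For all 128 members the 95% interval of the log2 fold change lay within a 2-fold difference in either direction, as it did for 3972 of the 4030 abundant genes, or 98.6%. It lay within 1.5-fold for 100 members, or 78.1%, and for 68.9% of the abundant genes. Because the rule limited the values these intervals are computed from, they may be too narrow and do not bound the difference between the devices. The median standard error was 0.168. Fitted differences ran from -0.26 to 0.42. The device means lay within 10% of the larger for 88 members, or 68.8%, and for 59.5% of the abundant genes. The p-values do not show that the devices act alike.

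The fitted difference was above 0, that is higher in Nanuq, for 98 members, or 76.6%, and for 59.5% of the abundant genes. Its median was 0.07 over the members, 0.04 over the abundant genes and 0.02 over all genes tested. Scaled by library size alone, 64.8% of members and 51.3% of abundant genes were higher in Nanuq, and the member median was 0.03. Without both Cryotop replicates 1 and 3, where fewer genes were detected, it was 57.8% of members and 53.4% of abundant genes, with a member median of 0.02. The median stayed above 0 under every scaling and with each library left out.

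All 3 Nanuq libraries lay above all 3 Cryotop libraries in 10 members, or 7.81%, against 5.88% of the abundant genes. They lay below in 2 members, or 1.56%, against 4.69%. The smallest p in favour of Nanuq belonged to ENSBTAG00000008498. It measured 184, 208 and 217 CPM in Nanuq, 140, 181 and 150 CPM in Cryotop, and 229, 251 and 226 CPM in CTR. The devices were apart only by 184 against 181 CPM, and the lower Cryotop values were those of replicates 1 and 3. The log2 fold change was 0.41 ± 0.151 (SE), with a 95% interval from 0.09 to 0.72 and an adjusted p of 1 by edgeR. Next came ENSBTAG00000039573, with 188, 208 and 208 CPM in Nanuq, 130, 194 and 145 CPM in Cryotop, and 224, 210 and 209 CPM in CTR. Here Cryotop replicate 2 lay inside the range of Nanuq, and the low values were those of Cryotop replicates 1 and 3. The log2 fold change was 0.40 ± 0.158.

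In the other direction, ENSBTAG00000018633 measured 95.9, 88.0 and 103 CPM in Nanuq, 108, 129 and 115 CPM in Cryotop, and 146, 212 and 138 CPM in CTR. The devices did not overlap, and the log2 fold change was -0.26 ± 0.182 (SE), with a 95% interval from -0.64 to 0.12. ENSBTAG00000003948 measured 226, 195 and 198 CPM in Nanuq, 203, 230 and 279 CPM in Cryotop, and 308, 308 and 295 CPM in CTR. The devices overlapped, the 3 controls lay close together, and the log2 fold change was -0.17 ± 0.142. None of these 4 differences passed the threshold.

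**Figure D5:**
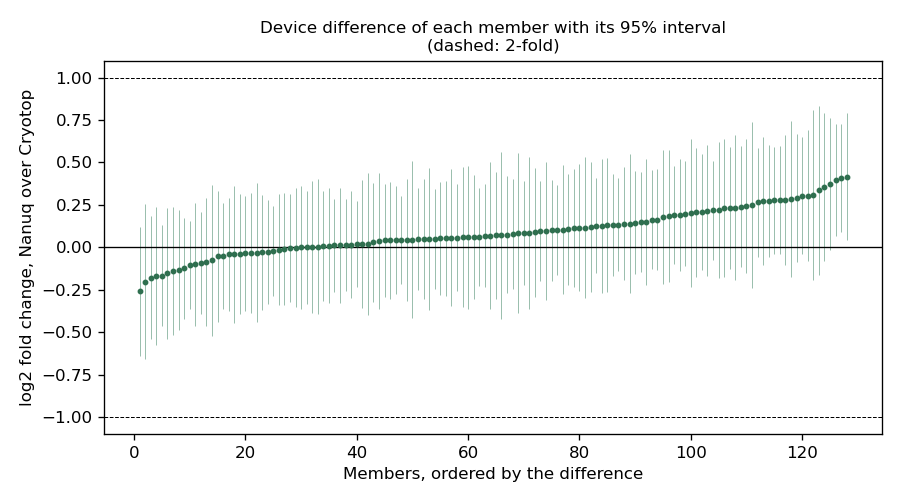
The log2 fold change of Nanuq over Cryotop (y axis) for each of the 128 members, ordered from lowest to highest (x axis), with 95% intervals from edgeR's fit as vertical lines and a 2-fold difference dashed. The values run from -0.26 to 0.42, every interval lies between the dashed lines, and 98 values are above 0.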

How the data were processed

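The authors deposited raw counts per gene, 1 column per library, with Ensembl bovine identifiers. Every column was matched by its name, 0 were left unused, and 0 rows lacked an identifier. Per the submitters' processing notes, the genome build was ARS-UCD1.2 and the tools were STAR 2.7.0e, Trim Galore 0.6.0, DESeq2 1.26.0 and FastQC. How reads were counted, on which annotation and with which strand setting is not given in the sources here, so reads of overlapping, antisense or near-identical genes may be split or shared. Per the labels' protocols, RNA was isolated with PicoPure columns and the NEBNext Ultra II kit gave the libraries. Reads carried no molecular identifiers that the labels mention, so reads copied from the same molecule cannot be told apart. The counting intervals treat every read as independent and may be too narrow.

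CPM for the rule used column totals. The test was edgeR 4.0.16 (R 4.3.3): filterByExpr (14005 genes kept, holding 99.94% of counts), TMM, robust quasi-likelihood fit over 3 groups with 6 residual degrees of freedom, Benjamini-Hochberg adjustment over all genes tested, threshold 0.05. Intervals used a median of 18.9 total degrees of freedom. DESeq2 1.42.0 and limma 3.58.1 (voom) were alternatives. Only edgeR's test was tried on simulated data, for Nanuq against Cryotop and with changes of 2-fold or more. DESeq2 and voom were not tried in this way, nor were changes as small as the members' falls. The members, lists and tests were chosen with earlier results of these data known.

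Named genes were the 2 members with the widest gap, the 2 most abundant, the 2 with the largest fall, and the 2 higher and 2 lower in Nanuq than in Cryotop with the smallest p. Identifiers are given for the first and last of these. The 20 gene lists prepared by symbol could not be used.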

Additional observations from a re-analysis of the deposited data

How the results depend on the processing

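The number of members was 83 with TMM scaling, 84 with DESeq2-style size factors, 196 at a minimum of 25 CPM, 80 at a minimum of 100 CPM and 232 without both Cryotop replicates 1 and 3. With counts thinned to the smallest library total, 3970666, it was 122, of which 96 were members. Leaving out 1 library at a time gave 145 to 304. For Nanuq against Cryotop, 0 members were called under every alternative run, and their median log2 fold change, 0.07, ran from 0.02 without both Cryotop replicates 1 and 3 to 0.13 without Nanuq replicate 1. It was 0.11 without Cryotop replicate 2.

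Over all genes, edgeR called 0 in each comparison. Without a filter on low counts it called 7 for Nanuq against Cryotop, 19 for Nanuq against CTR, 58 for Cryotop against CTR and 56 for both cooled groups against CTR. DESeq2 called 28, 52 and 55 in the last 3 of these. In edgeR's fit without a filter the spread of the median gene came wholly from the estimate shared over genes. With 1 library left out at a time edgeR called 0 to 1 for Nanuq against Cryotop and for Nanuq against CTR, and 0 to 8 for Cryotop against CTR, the 8 without Cryotop replicate 2. Without both Cryotop replicates 1 and 3, an alternative added after seeing the data, it called 1 for Nanuq against CTR. The cause was not tested.

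Fitted with a replicate block, edgeR gave 1 call for Cryotop against CTR and 1 for both cooled groups against CTR, and 0 members in any comparison. Deviations of same-numbered libraries correlated at -0.04 to 0.23, over 0.1 in 5 of 9 pairs, and the own number correlated best in 11 of 18 comparisons. Whether the numbers pair the pools was not tested. The main fit held no block because no label states such a pairing.

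Of 750 values of the 10 named genes under alternatives, 703 kept their direction and their side of the threshold, 17 kept their direction and passed it, all by DESeq2 or without a filter, and 30 changed sign. Of these, 29 were device differences near 0, of 4 members. ENSBTAG00000010910, at 0.02, gave -0.0044 with DESeq2-style size factors, -0.020 by library size alone, -0.0042 at a mean of at least 5 CPM, -0.0033 by DESeq2, -0.019 with thinned counts, and -0.071 to 0.16 over the 9 fits that each lacked 1 library. The most abundant member, at 0.01, gave -0.016, -0.030, -0.016, -0.016 and -0.015 under the same first 5 settings, -0.044 without both Cryotop replicates 1 and 3, and -0.050 to 0.12 with 1 library left out. The next most abundant member, at 0.01, gave -0.015, -0.030, -0.014 and -0.015 under the first 4 settings, -0.022 by limma voom, -0.031 without both Cryotop replicates 1 and 3, and -0.11 to 0.11 with 1 library left out. The member with the largest fall, at 0.07, gave -0.016 by limma voom, -0.15 without both Cryotop replicates 1 and 3, and -0.075 to 0.21 with 1 library left out. The difference of ENSBTAG00000039573 between Nanuq and CTR, -0.06, ran from -0.10 without CTR replicate 3 to 0.0016 without Nanuq replicate 1.

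Membership of single genes changed when counts were thinned. In a single random draw at the total of the smallest library, the rule found 122 genes. Of the 128 members 96 were among them, although no member had under 134 counts in any library. Whether depth or the noise of the draw lies behind this was not tested.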
